A study of Homo sapiens with 12 samples.

Results

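Alpha and beta tubulin join into the dimers from which microtubules are built, and each subunit is encoded by a family of genes called isotypes. The 10 isotype genes described here, 4 alpha (TUBA1A, TUBA1B, TUBA1C and TUBA4A) and 6 beta (TUBB, TUBB2A, TUBB2B, TUBB3, TUBB4B and TUBB6), were taken by name from the 63568 gene identifiers of the count table, and all 10 passed the filter on low counts that left 25249 genes. RNA was measured by bulk sequencing in MDA-MB-231 cells that carry GFP, a human triple negative breast cancer line, grown in 3D Matrigel. The 6 conditions had 2 libraries each: cultures without drug harvested on day 2 (untreated day 2) or on day 4 (untreated day 4), and cultures given Paclitaxel on day 2 at 0.0005, 0.005, 0.05 or 0.5 μM and harvested on day 4. The day of dosing is that of the deposited design text. The study's methods refer the sequenced cultures to the procedure of its imaging cultures, which were dosed after day 4, so the length of exposure is uncertain. All 12 libraries came from the same line and the same matrix, without a vehicle arm in the labels, and the 4 doses share the untreated samples of day 4 as their control. In bulk RNA, fewer cells that express a gene and less of its RNA per cell cannot be told apart.

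Paclitaxel binds beta tubulin inside the microtubule and keeps the polymer from coming apart. Tubulin mRNA is itself under a known feedback, called autoregulation: when free dimers accumulate, the protein TTC5 recognises the start of the tubulin chain as it leaves the ribosome, and the mRNA is degraded through the SCAPER and CCR4-NOT proteins. The isotypes differ mainly at their C-terminal tails and in the tissues that use them, TUBB, TUBB4B, TUBA1B and TUBA1C being used by most dividing cells and TUBB3 being known as the neuronal beta isotype that tumours also express. The line markers VIM, CD44, CAV1 and AXL were at or above 236.7 CPM (counts scaled to a common TMM library size) in every library, while ESR1 stayed at or below 0.46 CPM, PGR at or below 0.087 CPM and EPCAM at or below 6.77 CPM. ERBB2 lay between 26.6 and 52.4 CPM. AXL and CAV1 were lower in treated than in untreated libraries (log2 -0.88 and -0.34, edgeR adjusted p = 0.00113 and 0.0351). At an adjusted p under 0.05, 11.3% of all genes tested were lower in that comparison, and VIM and CD44 were not. The totals ran from 38380629 to 79169121 counts per library.

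The first 30 coding bases of each isotype, read 5′ to 3′ from the GENCODE transcripts on GRCh37, are shown because the first 4 codons, in capitals, encode the residues that autoregulation reads.
TUBA1A, TUBA1B and TUBA1C: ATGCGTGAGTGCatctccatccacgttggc
TUBA4A: ATGCGTGAATGCatctcagtccacgtgggg
TUBB: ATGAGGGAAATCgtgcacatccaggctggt
TUBB2A: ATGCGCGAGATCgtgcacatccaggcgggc
TUBB2B: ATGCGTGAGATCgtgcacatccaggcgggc
TUBB3: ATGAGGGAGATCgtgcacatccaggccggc
TUBB4B: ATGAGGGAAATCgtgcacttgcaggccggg
TUBB6: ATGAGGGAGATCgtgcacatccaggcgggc
The capitals of TUBA1A, TUBA1B and TUBA1C were identical, as were those of TUBB and TUBB4B and those of TUBB3 and TUBB6. Over whole coding sequences, identity ran from 84.4 to 97.2% between alpha isotypes, from 81.0 to 98.1% between beta isotypes and from 55.1 to 58.1% between an alpha and a beta isotype.

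On GRCh37, 3 alpha genes lie close together on chromosome 12: TUBA1B at chr12:49521565-49525180 and TUBA1A at chr12:49578469-49582863, both on the minus strand, and TUBA1C at chr12:49582519-49668383 on the plus strand. TUBA4A lies at chr2:220114432-220142624 on the minus strand. The near-identical pair TUBB2A (chr6:3153731-3157778) and TUBB2B (chr6:3223558-3231964) lies on the minus strand, and TUBB (chr6:30685212-30693315) on the plus strand of the same chromosome. TUBB3 (chr16:89987800-90005169), TUBB4B (chr9:140135739-140138159) and TUBB6 (chr18:12307668-12344319) are all on the plus strand. Reads were counted in exons, UTRs included, and whether the counting used strand is not given in the sources used here. Exons on the opposite strand overlap TUBA1B over 1571 bases (TUBA1B-AS1), TUBB6 over 837 bases (AFG3L2) and TUBA4A over 628 bases (STK16). Genes without a symbol overlap TUBA1C over 666 bases and TUBB over 538 bases, also on the opposite strand, and TUBA1A overlaps TUBA1C over 345 bases. Without strand, reads in these overlaps cannot be assigned to 1 gene. Of TUBB3's transcript, 92.5% of the 100-base stretches lie in a read-through identifier of the same strand, which held 0 or 1 count in each library. If reads falling in both genes were left out of the counting, which was not tested, the level and share of TUBB3 are too low. Its fold change would then rest only on reads outside the shared stretch.

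Every alpha isotype was higher in all 8 treated libraries than in both untreated libraries of day 4, as were 12.1% of all genes tested, and TUBA1A about doubled. Over both subfamilies, 6 of the 10 isotypes were called higher in the 8 treated against the 4 untreated libraries at an adjusted p under 0.05 and none lower, against 13.1% of all genes called higher. TUBA1A, the alpha isotype best known from developing neurons, had 293.2 and 329.9 CPM on day 2 and 328.7 and 321.3 CPM on day 4 without drug. With Paclitaxel it reached 697.2 and 803.7 CPM at 0.0005 μM, 687.7 and 685.8 CPM at 0.005 μM, 684.1 and 551.9 CPM at 0.05 μM, and 661.3 and 605.1 CPM at 0.5 μM. No treated library overlapped an untreated one, the lowest treated value being 551.9 CPM. In edgeR's quasi-likelihood fit of the 8 treated against the 4 untreated libraries, TUBA1A was 2.11-fold higher (log2 1.08, SE 0.11, adjusted p = 1.07e-05).

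TUBA4A, a minor alpha isotype whose protein lacks the final tyrosine, had 14.41 and 9.963 CPM on day 2, 10.82 and 9.549 CPM on day 4, and 14.59 to 22.3 CPM with drug (median 18.06). Treated and untreated libraries did not overlap, by a margin of 14.59 against 14.41 CPM. TUBA4A was 1.60-fold higher in treated libraries (log2 0.68, SE 0.13, adjusted p = 0.00156). The abundant TUBA1B had 556.8 and 516.3 CPM on day 2, 388.9 and 403.5 CPM on day 4 and 488.4 to 673.6 CPM with drug (median 567.9). TUBA1C had 660.8 and 516.6 CPM on day 2, 447.1 and 425.6 CPM on day 4 and 514.9 to 670.9 CPM with drug (median 560.7). For both genes the treated range overlapped that of untreated day 2 and lay above that of untreated day 4. Neither passed the test of treated against untreated libraries, with log2 changes of 0.27 (SE 0.12, adjusted p = 0.127) for TUBA1B and 0.17 (SE 0.13, adjusted p = 0.347) for TUBA1C. With 1 library left out, these changes ran from 0.18 to 0.36 for TUBA1B and from 0.08 to 0.31 for TUBA1C, and neither was called.

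**Figure D1:**
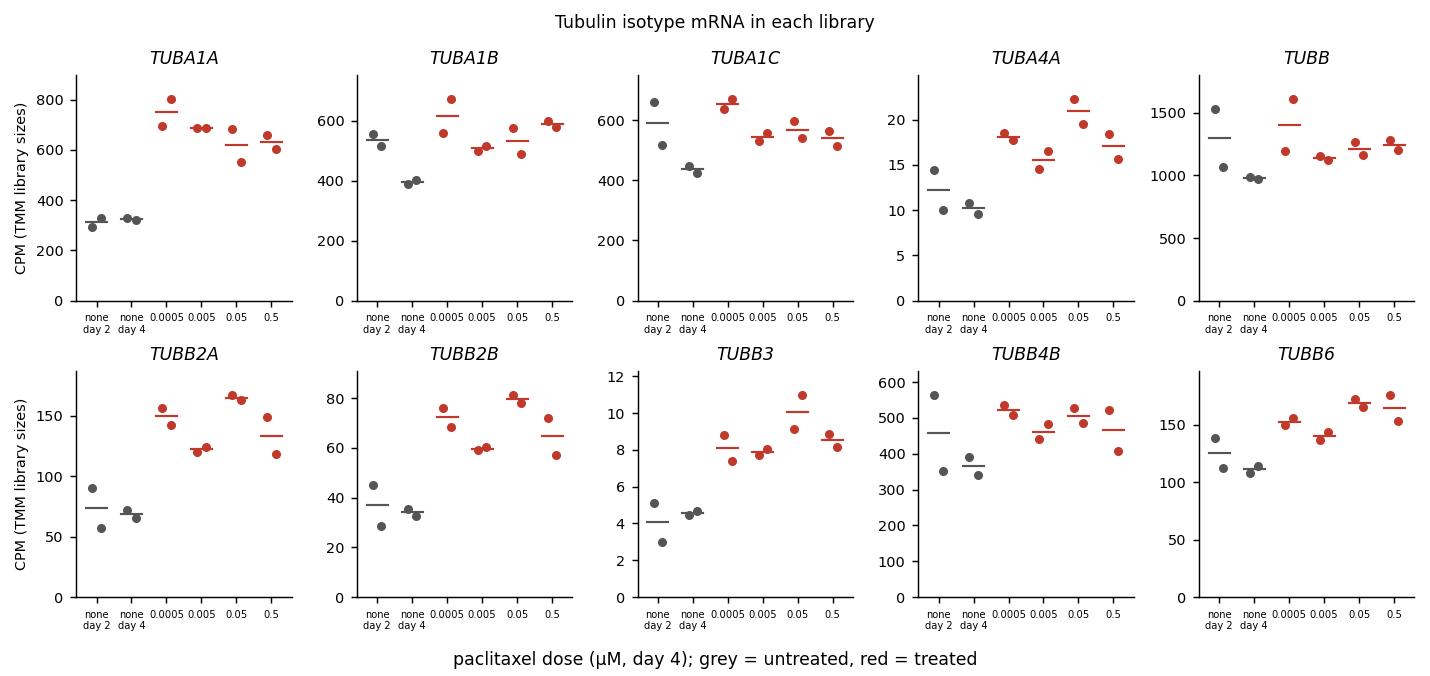
Level of each isotype in each library, in CPM on an axis that starts at 0, against condition: points are libraries, bars are means of 2, grey is untreated and red is treated with Paclitaxel. All 10 genes lie higher at each dose than in the untreated libraries of day 4, and TUBA1A, TUBA4A, TUBB2A, TUBB2B and TUBB3 also lie above both libraries of day 2.

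Among the beta isotypes, TUBB2A, TUBB2B and TUBB3 about doubled, TUBB6 rose less, and TUBB and TUBB4B did not pass the test. TUBB2A had 90.21 and 57.09 CPM on day 2 and 71.66 and 65.06 CPM on day 4 without drug. It had 156.4 and 142.7 CPM at 0.0005 μM, 120.3 and 124.5 CPM at 0.005 μM, 167.1 and 163.2 CPM at 0.05 μM, and 149.0 and 118.2 CPM at 0.5 μM. All treated libraries stood above all untreated ones, and TUBB2A was 2.01-fold higher (log2 1.01, SE 0.14, adjusted p = 8.17e-05). TUBB2B was 1.95-fold higher (adjusted p = 0.000102), going from 28.43 to 45.29 CPM in untreated to 57.3 to 81.25 CPM in treated libraries. TUBB2A and TUBB2B are 98.1% identical in coding sequence, and 53.7% of the 100-base stretches of TUBB2A also occur in TUBB2B. TUBB2B held 0.495 to 0.502 counts for each count of TUBB2A in untreated and 0.478 to 0.491 in treated libraries. Whether reads of 1 gene were placed with the other was not tested.

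TUBB3 had the lowest counted level per kilobase, within the limit set by its read-through partner, with 5.099 and 3.013 CPM on day 2, 4.470 and 4.692 CPM on day 4 and 7.38 to 10.97 CPM with drug (median 8.477). The groups did not overlap, and TUBB3 was 1.99-fold higher in treated libraries (log2 0.99, SE 0.14, adjusted p = 0.000144). TUBB6 had 138.2 and 112.4 CPM on day 2, 108.0 and 114.5 CPM on day 4 and 136.5 to 175.9 CPM with drug (median 154.7). Of the 8 treated libraries, 7 stood above all 4 untreated ones, and TUBB6 was 1.32-fold higher (log2 0.41, SE 0.10, adjusted p = 0.00797).

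TUBB, the main beta isotype here, had 1530 and 1065 CPM on day 2, 988.5 and 974.4 CPM on day 4 and 1126 to 1613 CPM with drug (median 1200). TUBB4B had 563.3 and 351.2 CPM on day 2, 391.3 and 339.7 CPM on day 4 and 408.6 to 537.1 CPM with drug (median 496.1). Treated libraries of both genes lay above both replicates of untreated day 4. Replicate 1 of untreated day 2 lay above all 8 treated libraries for TUBB4B and above all but 1 for TUBB. The log2 changes over all untreated libraries were 0.13 for TUBB (SE 0.14, adjusted p = 0.515) and 0.25 for TUBB4B (SE 0.13, adjusted p = 0.189). Replicate 1 of untreated day 2 had the highest level of 9 of the 10 isotypes among untreated libraries. Without it, TUBB4B was called in the same comparison (log2 0.43, adjusted p = 0.019), and TUBB was at log2 0.30 and not called.

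Counting libraries without a model, all 10 isotypes were higher in each of the 8 treated libraries than in both untreated libraries of day 4, a pattern met by 12.1% of all genes. Of the 10, 5 were also above both libraries of day 2 (TUBA1A, TUBA4A, TUBB2A, TUBB2B and TUBB3), against 7.39% of all genes. Most isotypes are abundant, so the same count was taken over the 2020 genes with a mean of at least 100 CPM, a limit chosen after the values were seen. There the shares were 3.51% and 1.19%. Of the 7 isotypes among these genes, 7 were above both untreated libraries of day 4, and 2, TUBA1A and TUBB2A, above all 4 untreated libraries. TUBB2A reached the limit only through its treated libraries (118.2 to 167.1 CPM), having 57.09 to 90.21 CPM in untreated ones. Its place in this set is therefore no support for its change. Among these abundant genes, TUBA1A had the 9th largest log2 change between treated and untreated libraries, since 8 genes stood above it. The 10 genes together took 0.261 to 0.35% of all counts in untreated libraries and 0.387 to 0.424% in treated ones.

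Each dose against untreated day 4 gave the same direction for every isotype. At 0.0005 μM, 4 of 10 isotypes were called higher at an adjusted p under 0.05, against 1.87% of all genes called higher: TUBA1A (2.31-fold, adjusted p = 0.00168), TUBB2A (adjusted p = 0.0108), TUBB2B (adjusted p = 0.0129) and TUBA4A (adjusted p = 0.0346). At 0.005 μM, 3 were called against 2.5% of all genes, namely TUBA1A (adjusted p = 0.00374), TUBB2A (adjusted p = 0.039) and TUBB2B (adjusted p = 0.046). At 0.05 μM, 6 were called against 5.09%: TUBB2A (2.42-fold, adjusted p = 0.00327), TUBB2B, TUBA1A, TUBA4A, TUBB3 and TUBB6. At 0.5 μM, 7 were called against 4.36%, these 6 genes and TUBA1B (log2 0.57, adjusted p = 0.0475). The call of TUBA1B was lost with the replicate number as a block (adjusted p = 0.0541), with RLE scaling (adjusted p = 0.0527) and with both untreated days as control (adjusted p = 0.0904). None was called lower at any dose, and an isotype that was not called is not shown to be unchanged. The median log2 change of the 10 genes was 0.73, 0.48, 0.76 and 0.66 from the lowest to the highest dose, beside -0.01, 0.04, -0.01 and 0.04 over all genes tested. With 2 libraries a group, a permutation test done exactly on 1 gene at 1 dose cannot go below p = 0.333, so these calls rest on the spread shared across genes by the edgeR fit.

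**Figure D2:**
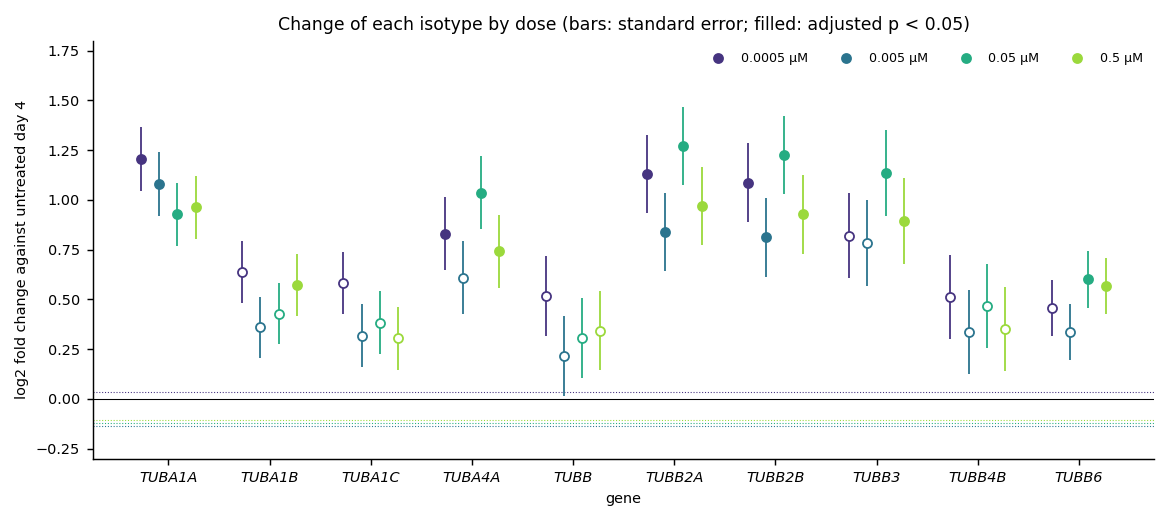
Log2 fold change of each isotype against untreated day 4 at each dose: points are fitted changes, bars are standard errors, filled points passed an adjusted p of 0.05, and dotted lines mark the median change of the 2020 abundant genes. All 40 points lie above 0, with TUBA1A, TUBB2A and TUBB2B highest at 3 of the 4 doses and no common order of the doses.

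The counts per dose depended on single libraries, though the sign did not. Without either untreated library of day 4, the calls fell to 1 at 0.0005 μM, to 0 or 1 at 0.005 μM, to 2 at 0.05 μM and to 0 at 0.5 μM. Without replicate 1 of 0.5 μM the calls at that dose also fell to 0, without replicate 2 they fell to 2, and without a library of another dose they were 2 to 4. Without either library of 0.0005 μM, 1 isotype was called at that dose, and without any 1 library of any dose, 1 was called at 0.005 μM. Without either library of untreated day 2 the calls rose to 10 at 0.0005 μM and 5 at 0.005 μM. In the 4 fits of each dose that leave 1 library in an arm, that library is assumed to vary like the other groups.

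No isotype had a called trend across the 4 doses. The slope of log2 level per 10-fold step in dose, fitted in the 8 treated libraries, ran from -0.09 for TUBA1A (SE 0.05, adjusted p = 0.356) to 0.06 for TUBB3 (SE 0.05, adjusted p = 0.589). None of the 10 was called by edgeR, at an unadjusted p under 0.05 or by DESeq2, while 3.06% of all genes were called in either direction. Untreated day 4 against untreated day 2 also called none of the 10 by edgeR or DESeq2, against 0.325% of all genes. At an unadjusted p under 0.05 this comparison held 2 isotypes, TUBA1B (log2 -0.44, SE 0.15, adjusted p = 0.381) and TUBA1C (log2 -0.43, SE 0.16, adjusted p = 0.409). Without replicate 2 of untreated day 2, TUBA1C and TUBB4B were called lower on day 4 (adjusted p = 0.0328 and 0.0437), but that fit leaves only replicate 1 on day 2, the library with the highest TUBB4B, and takes its spread from the other groups. Without replicate 1 instead, TUBB4B had a log2 change of 0.06 (adjusted p = 0.885).

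Levels of different isotypes were compared as CPM per kilobase of transcript. The order depends on the length used: all annotated exons cover 3823 bases for TUBA1A and 2037 for TUBB4B, beside transcripts of 1672 and 1563 bases. The order by all annotated exons was not tested. In untreated libraries the order from the highest median was TUBB at 408, TUBA1B at 283, TUBB4B at 237.5, TUBA1A at 194.4, TUBA1C at 170.7, TUBB6 at 60.4, TUBB2A at 42.3, TUBB2B at 17.7, TUBA4A at 5.07 and TUBB3 at 2.69 CPM per kilobase. The ranges of TUBA1B and TUBB4B overlapped, as did those of TUBA1A and TUBA1C, and the other neighbours in the order did not overlap. In treated libraries TUBA1A moved to the second place, at 409.7 CPM per kilobase behind TUBB at 477.3, and TUBB2A at 90.3 stood beside TUBB6 at 82.3. There the ranges of TUBB, TUBA1A, TUBA1B and TUBB4B overlapped from neighbour to neighbour, as did those of TUBB2A and TUBB6.

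The makeup of each pool differed between treated and untreated libraries, and without drug it also differed between the days. Untreated TUBA1A took 23.11 and 28.09% of alpha mRNA per kilobase on day 2, and 32.8 and 32.27% on day 4. Untreated TUBA1B took 45.11 and 45.17% on day 2, and 39.89 and 41.64% on day 4. TUBA1A went from 29.07 ± 4.5% of alpha mRNA per kilobase (SD, n = 4) in untreated to 41.85 ± 1.88% (SD, n = 8) in treated libraries, in an exact permutation test of log2 shares with adjusted p = 0.00404. Over the same libraries TUBA1B fell from 42.95 ± 2.63% to 35.95 ± 1.90% and TUBA1C from 27.16 ± 2.51% to 21.28 ± 1.04%, each with an exact adjusted p = 0.00404. In the beta pool, TUBB2A rose from 5.24 ± 0.52% to 8.63 ± 0.90% and TUBB2B from 2.20 ± 0.21% to 3.51 ± 0.36% (exact adjusted p = 0.00404 for each). TUBB3 rose from 0.30 ± 0.07% to 0.50 ± 0.07% (exact adjusted p = 0.00673), and TUBB fell from 53.62 ± 1.84% to 48.58 ± 3.11% (exact adjusted p = 0.0375). TUBB4B stayed the second beta isotype, at 31.06 ± 1.53% in untreated and 30.61 ± 1.93% in treated libraries (exact adjusted p = 0.675). TUBA4A (exact adjusted p = 0.29) and TUBB6 (exact adjusted p = 0.215) did not pass either. Shares within a pool sum to the whole, so the share of 1 isotype cannot rise without another falling. The shares rest on the same lengths and unique alignments as the levels above.

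**Figure D3:**
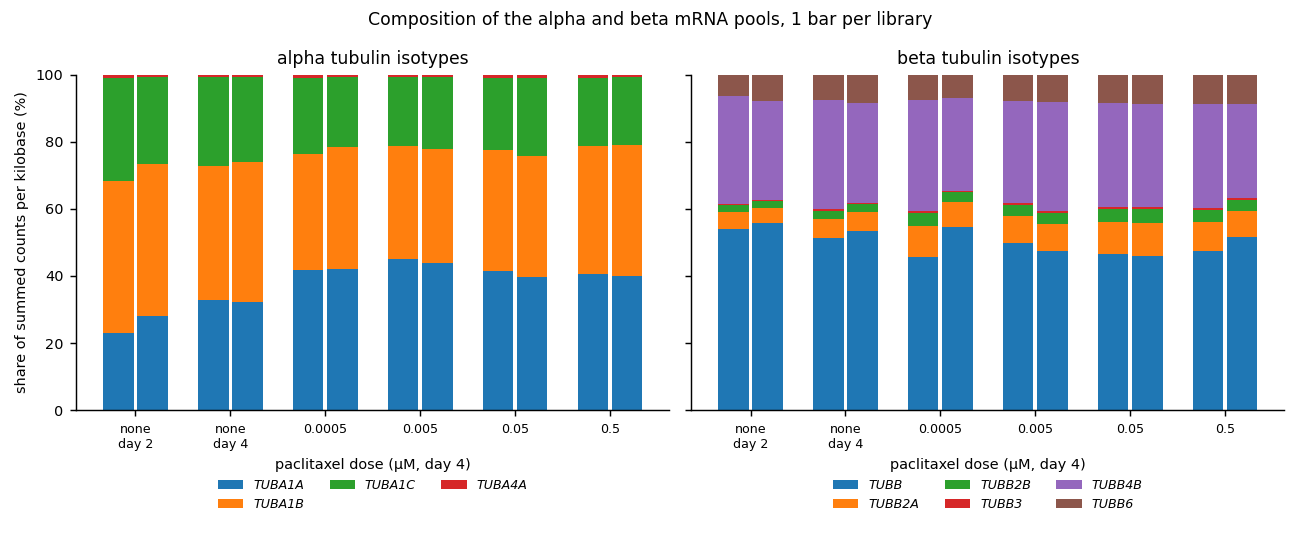
Share of each isotype in the summed counts per kilobase of the alpha (left) and beta (right) genes, in percent, with 1 stacked bar per library, 2 per condition. TUBA1A takes 23.11 to 32.8% of the alpha pool in untreated and 39.71 to 45.05% in treated libraries, and TUBB2A takes 4.65 to 5.79% and 7.51 to 10.01% of the beta pool.

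With the day held at 4, so that 8 treated stood against 2 untreated libraries, 5 shares still passed: TUBA1A, TUBB2A and TUBB2B higher, TUBA1B and TUBA1C lower (exact adjusted p = 0.0444 for each). All 5 log2 differences in share were smaller than over both untreated days. They were 0.36 beside 0.54 for TUBA1A, 0.60 beside 0.72 for TUBB2A and 0.56 beside 0.68 for TUBB2B. For TUBA1B they were -0.18 beside -0.26, and for TUBA1C -0.28 beside -0.35. The shares of TUBB3 (exact adjusted p = 0.0741) and TUBB (exact adjusted p = 0.254) did not pass in that smaller set. Between the 2 higher and the 2 lower doses, none of the 10 shares passed an adjusted p of 0.05. TUBA1A (40.44 ± 0.82% against 43.26 ± 1.50%, SD, n = 4) and TUBB6 (8.67 ± 0.14% against 7.67 ± 0.46%) reached 0.0286, the smallest p that the exact permutation test can give, which was 0.143 after adjustment.

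Summed over isotypes, alpha mRNA was 595.6 to 758.7 CPM per kilobase in untreated and 831.2 to 1141 in treated libraries, a ratio of 1.45 (exact permutation test, adjusted p = 0.00606). Beta mRNA was 725.7 to 1125 CPM per kilobase in untreated and 922.1 to 1177 in treated libraries, a ratio of 1.23 (exact adjusted p = 0.0303). The alpha sum per beta sum was 1.18-fold higher in treated libraries (exact adjusted p = 0.0182, 3 tests), and it lay between 0.6745 and 0.9245 in untreated and between 0.8237 and 0.9901 in treated libraries.

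Of 10 other tubulin genes tested, 7 had a positive change in treated libraries (median log2 0.34). TUBAL3, an alpha-like gene, and TUBB4A, a brain beta isotype, were called higher in treated libraries and none lower, against 13.1% of all genes called higher. TUBAL3 was called at all 4 doses, with log2 changes of 1.75 to 1.83, and was 3.76-fold higher in treated libraries (adjusted p = 1.6e-05) at a mean of only 0.784 CPM. TUBB4A was 1.54-fold higher (adjusted p = 0.0228) at a mean of 1.11 CPM. TUBG1, the gamma tubulin that nucleates microtubules, had a log2 change of -0.28 (SE 0.13, adjusted p = 0.126). Among 11 tested nucleation genes, none was higher and 2 were lower, against 11.3% of all genes called lower: TUBGCP3 (log2 -0.85) and TUBGCP4 (log2 -0.41), both parts of the gamma tubulin ring complex.

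No gene that folds tubulin or acts in autoregulation was called higher. None of 23 tested was called at any dose, and in treated against untreated libraries 5 were lower and none higher, against 11.3% and 13.1% of all genes. The lower ones included TBCD (log2 -0.68, adjusted p = 0.00527) and TBCEL (log2 -0.26), which act on the assembly or stability of tubulin, CNOT11 (log2 -0.38), a CCR4-NOT subunit, and TTC5 (log2 -0.32, SE 0.11, adjusted p = 0.0341). At the single doses TTC5 had log2 changes from -0.43 to -0.07, none of them called. The median log2 change of the list was -0.17 beside 0.54 for the 10 isotypes, a value near 0 for all genes and -0.16 for the 2020 genes with a mean of at least 100 CPM, of which 420 were called lower. Against untreated day 4 alone the list medians were 0.095, -0.035, -0.111 and 0.017 from the lowest to the highest dose. From untreated day 2 to day 4, 22 of the 23 had a negative change (median -0.305), none of them called.

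Of 23 tested enzymes that modify tubulin, 3 were higher and 6 lower in treated libraries, against 13.1% and 11.3% of all genes. Among the lower ones were VASH1 (log2 -0.60, adjusted p = 0.00409), which removes the last tyrosine of alpha tubulin, and TTLL11 (log2 -0.63), TTLL5 (log2 -0.38) and TTLL7 (log2 -0.39), which add glutamate chains. The 3 higher ones, named after their values were seen, were TTLL6 (log2 1.11, adjusted p = 0.0126, mean 0.284 CPM), of the same glutamylase family, and AGBL2 (log2 0.59) and AGBL3 (log2 0.49), which remove residues from tubulin tails. At 0.5 μM 1 of the 23 was higher and 2 were lower, against 4.36% and 1.96% of all genes, and TTLL7 was one of the lower ones (log2 -0.66, adjusted p = 0.0186).

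**Figure D4:**
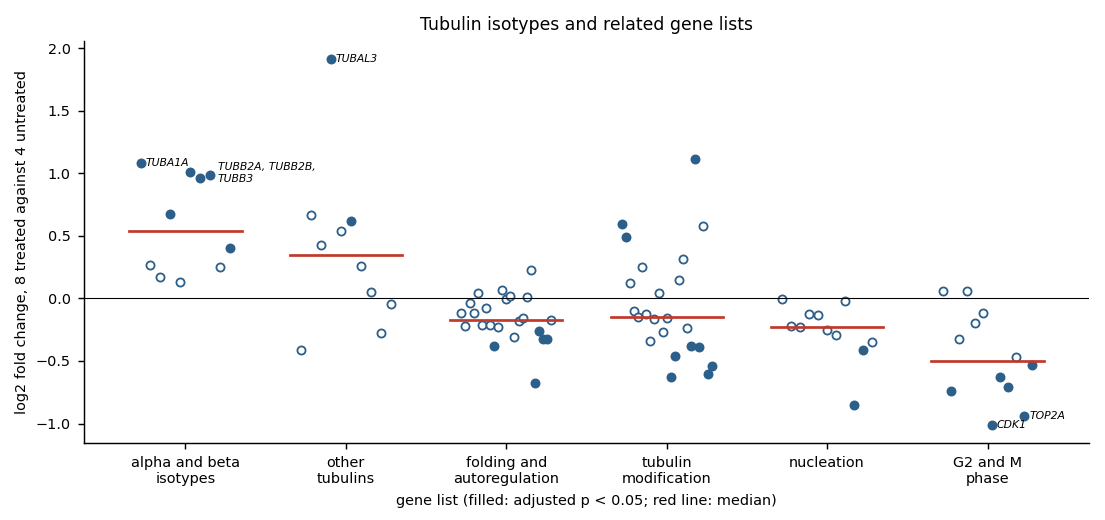
Log2 fold change of 8 treated against 4 untreated libraries for the 10 isotypes and the tested genes of 5 related lists: each point is a gene, filled points passed an adjusted p of 0.05, and red lines are medians. All 10 isotypes lie above 0 with a median of 0.54, the other tubulin genes have a median of 0.34 with 7 of 10 above 0, and the medians of the folding, modification, nucleation and G2 and M lists lie below 0, at -0.17, -0.15, -0.23 and -0.50.

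Microtubules also form the mitotic spindle, so genes of the G2 and M phases are given beside the isotypes. Of 12 tested, 6 were lower and none higher in treated libraries, against 11.3% and 13.1% of all genes. Against untreated day 4 alone, none was called at 0.0005 or 0.005 μM, and 2 were lower at 0.05 μM, as were 815 of all 25249 genes. All 12 had a negative change from untreated day 2 to day 4 (median log2 -0.58), none of them called. In the slope on dose 3 were called higher and none lower, against 3.06% of all genes called in either direction. Among the lower ones were TOP2A (log2 -0.94), CDK1 (log2 -1.01), AURKB (log2 -0.74) and CENPF (log2 -0.63). At 0.5 μM, where 4.36% of all genes were called higher and 1.96% lower, 2 were higher, CCNB1 (log2 0.84, adjusted p = 0.0279) and AURKA (log2 0.75, adjusted p = 0.0247), which are named after their values were seen, and TOP2A was lower (log2 -0.58, adjusted p = 0.0496). The median deviation of the 12 genes from their mean over all libraries was 0.44 to 0.66 on untreated day 2, 0.05 to 0.11 on untreated day 4 and -0.35 to 0.17 in treated libraries, on the log2 scale. The part of the cell cycle in the isotype values was not tested.

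Markers of 2 other cell types were read beside the isotypes. Fibroblast markers summed to 10.1 to 18.7 CPM in untreated and 14.2 to 21.5 CPM in treated libraries, most of it from COL1A1 (4.80 to 9.85 CPM) and PDGFRB (3.61 to 9.15 CPM), with COL1A2, DCN and THY1 at or below 0.19 CPM, and 1 of 6 tested, COL3A1, was called higher at a mean of 0.704 CPM, against 13.1% of all genes. Neuronal markers, listed because TUBB3 and TUBA1A are used by neurons, summed to 5.82 to 11.3 CPM in untreated and 7.25 to 10.6 CPM in treated libraries. Of 4 tested, 2 were called higher in treated libraries, against the same 13.1% of all genes, SYP (2.43-fold, adjusted p = 0.000122) at a mean of 0.857 CPM and RBFOX3, which stayed at or below 0.26 CPM. SYP was called higher at all 4 doses, with log2 changes of 1.17 to 1.43. MAP2 made up most of the neuronal sum, at 5.25 to 10.8 CPM over the 12 libraries, and was not called in treated against untreated libraries (log2 -0.07, adjusted p = 0.803). It was called lower at 0.05 μM (log2 -0.54) and 0.5 μM (log2 -0.72) and higher on untreated day 4 than on day 2 (log2 0.87, adjusted p = 0.0331). The neuronal gene STMN2 stayed at or below 0.03 CPM. The median log2 deviation of the 4 tested neuronal genes from their mean over all libraries was -0.54 to -0.50 in untreated libraries. In treated libraries it was 0.03 to 0.61. Of the 4, SYP, RBFOX3 (mean 0.119 CPM) and SNAP25 (mean 0.0996 CPM) lay near the floor, and the summed CPM of the list overlapped. The part of the neuronal list in the isotype values was not tested.

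Outside the tubulin genes, the profile most like the median of the 10 isotypes over the 12 libraries was that of FTH1, the ferritin heavy chain, with Pearson's r = 0.96. It was followed by SLC3A2, a partner of amino acid transporters, at 0.95, then BRAP at 0.94, HTRA2 at 0.94 and ZKSCAN5 at 0.94, out of 11071 genes with a mean of at least 5 CPM. FTH1 was higher in treated libraries by 0.76 on the log2 scale (adjusted p = 0.00194). TUBA1A was most like S100P (r = 0.98), which was higher by 2.07 on the log2 scale, and TUBB2A and TUBB2B were most like OSGIN1 (r = 0.98), a gene of the oxidative stress response, higher by 1.10. TUBA4A was most like SLC3A2 (r = 0.97), TUBB3 most like PRKAB1 (r = 0.98) and TUBB6 most like RASSF1 (r = 0.96). The 4 isotypes that were not called sat beside genes that were not called either: TUBA1B beside RPL8 (r = 0.95), TUBA1C beside YBX1 (r = 0.91), TUBB beside RCL1 (r = 0.96) and TUBB4B beside ZNF668 (r = 0.96). These correlations are descriptions over 12 libraries that share conditions and scaling, and the genes were picked for their size.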

How the data were processed

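The authors trimmed reads (Trimmomatic 0.39), checked them with FastQC 0.11.9, aligned them to GRCh37 with STAR 2.7.5, kept unique alignments and counted reads in exons with Rsubread. The deposited values are these raw counts per gene. Because only unique alignments were kept, reads from stretches shared by isotypes can be missing or placed with 1 copy. The 10 members and the gene lists were chosen with earlier results of these data known. Counts were scaled by TMM and filtered by filterByExpr over the 6 conditions, and edgeR 4.0.16 (R 4.3.3) fitted a robust quasi-likelihood model across all 25249 genes, two-sided with Benjamini-Hochberg adjustment. Each dose and day 2 were compared with untreated day 4 in 1 model of 12 libraries. The slope on log10 dose used the 8 treated libraries, and treated against untreated libraries had its own fit, in which day and treatment are partly mixed because 2 of the 4 untreated libraries are from day 2. CPM use TMM library sizes, with a prior count of 2 for log2 CPM. Isotype shares use counts per kilobase of the canonical GENCODE transcript, tested by two-sided exact permutation over samples. The labels number replicates as biological. In the model of 12 libraries, p-values rest on the spread between the 2 libraries of each condition. Those of treated against untreated libraries, of the slope, and of the shares and sums also take in differences between doses or days.

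The folding, modification, nucleation, G2 and M and other tubulin lists were compiled by hand. Named from each by rule are at most the 4 called genes with the smallest adjusted p over the 7 comparisons, with TTC5, TUBG1 and TUBB4A always named. TTLL6, AGBL2, AGBL3, CCNB1 and AURKA fall outside this rule and were named after their values were seen. TBCE, AGBL1, TUBGCP5 and NEFL matched no identifier and were not analysed here. Alternatives were DESeq2 1.42.0, RLE scaling, no filter beyond 1 count, a replicate block, GC content and length offsets, a fit of only the 4 libraries compared, a control of all 4 untreated libraries, leaving out each library and, added after the data were seen, all annotated exons as length. The procedure was tested on simulated counts.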

Additional observations from a re-analysis of the deposited data

Results flagged for a closer look

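Values stand out for a closer look where the highest or lowest library of a group lies far from the rest by Dixon's criterion at 95%. Of 46 groups of values checked (each isotype's CPM and share, the alpha and beta sums and the percentage of all counts, in the 4 untreated and in the 8 treated libraries), 4 stood out, and chance alone marks about 1 in 20. In untreated libraries, replicate 1 of day 2 had 1530 CPM of TUBB, with the next at 1065 CPM. The same library had a summed beta level of 1125 CPM per kilobase, with the next at 766.3, and its 10 isotypes took 0.35% of all counts, with the next at 0.274%. In treated libraries, replicate 2 of 0.0005 μM had 1613 CPM of TUBB, with the next at 1284 CPM. No other isotype stood out in either library.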

How the results depend on the processing

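All 10 isotypes kept a positive change at every dose and in treated against untreated libraries under every alternative run, and the 6 calls of the latter were 6 to 7 with single libraries left out. Some sizes shrank: with both untreated days as control, the log2 changes at 0.005 μM went from 0.215 to 0.014 for TUBB. They went from 0.318 to 0.102 for TUBA1C and from 0.359 to 0.14 for TUBA1B. The calls at 0.5 μM went from 7 to 6, losing TUBA1B, with RLE scaling, with both untreated days as control and with the replicate block. The calls at the lower doses went up: 8 at 0.0005 μM and 5 at 0.005 μM by DESeq2, 7 and 5 with no filter beyond 1 count, 8 and 5 with GC content and length offsets, and 10 and 7 with only the 4 libraries of the comparison. With each library left out in turn, the calls ranged from 1 to 10 at 0.0005 μM, 0 to 5 at 0.005 μM, 2 to 9 at 0.05 μM, 0 to 7 at 0.5 μM, 0 to 2 between the untreated days and 0 to 0 for the slope. Changed shares ranged from 6 to 7 for treated against untreated libraries and from 0 to 0 between doses. The cause of these moves was not tested.

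Some uncalled log2 changes reversed in sign with a library left out, and all values of these genes are given as ranges over the fits with 1 library left out. Between the untreated days they were -0.02 to 0.18 for TUBA1A, -0.469 to 0.035 for TUBA4A, -0.369 to 0.262 for TUBB2A, -0.381 to 0.262 for TUBB2B, -0.593 to 0.059 for TUBB4B and -0.123 to 0.605 for TUBB3, the ends coming from the fits without replicate 1 or replicate 2 of day 2. For the slope they were -0.025 to 0.048 for TUBB2A, -0.024 to 0.046 for TUBB2B, -0.043 to 0.045 for TUBA1B, -0.072 to 0.034 for TUBB, -0.004 to 0.063 for TUBA4A and -0.076 to 0.005 for TUBB4B.

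Whether the replicate numbers pair the libraries is not settled. The correlation of replicate differences between 2 conditions ran from -0.6 to 0.682 over 15 pairs of conditions, and 8 of them were over 0.1. With the replicate number as a block, TUBA1B at 0.5 μM lost its call (adjusted p = 0.0541) and no other isotype's call changed, and the calls were 4, 3, 6 and 6 from the lowest to the highest dose, 0 between days, 0 for the slope and 6 for treated against untreated libraries.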
